A study of Saccharomyces cerevisiae with 13 samples.

Results

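The respiratory chain and ATP synthase were followed through the cell cycle of budding yeast as the transcripts of 37 nuclear genes: 4 of complex II, 9 of complex III, 9 of complex IV, 2 of cytochrome c and 13 of ATP synthase. The genes were taken by open reading frame from the textbook composition of these complexes, and the choice followed an earlier result on these data, that the 4 complex II genes were periodic. The deposited table held values on all 13 arrays for 35 of them, among 6137 genes tested. COX5B (YIL111W) and ATP19 (YOL077W-A) are not analysed here. The cells were W303 yeast carrying SSD1-V, the allele that makes full-length Ssd1, a protein that binds RNA. They were grown in YEPD, a rich medium with glucose, held in G1 with alpha factor, released into YEPD and sampled at 0 min and every 10 min to 120 min. Each of the 13 time points has 1 two-colour array, with the time point's cDNA in Cy5 and cDNA of an asynchronous W303a culture, grown in YEPD without pheromone, in Cy3 (which SSD1 allele it carried is not stated). No time point was replicated and no dye swap was made, so every error below is the standard error of a curve fitted over the arrays, and p-values measure departures within 1 culture, not the variation between cultures.

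All values are ratios of a time point to the asynchronous reference on a log scale, as deposited, and are taken as log2. The sources used here do not state the log base, and time point over reference is the likely direction, going by the labelled dyes. A gene-specific dye effect and a difference in level from the reference cannot be told apart. In a culture, fewer cells of a kind and less RNA per cell cannot be told apart either. The ratios say nothing of how abundant 1 transcript is against another. On each array between 6178 and 6186 rows were measured, the array medians lay between -0.03 and 0.01, and the standard deviation over rows lay between 0.24 and 0.39. The position in the cycle can be read from SIC1, an inhibitor of S phase cyclin kinase with a fitted peak at 10.1 ± 1.7, from the G1 cyclin CLN2 at 19.5 ± 1.2, from the histone gene HTA1 at 30.7 ± 1.0 and from the mitotic cyclin CLB2 at 45.2 ± 1.7 min after release, modulo 60. The 60 min array stood apart for the respiratory genes: it held the highest value of 28 of the 35, whereas it held the highest value of 8.74% of all genes.

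The respiratory chain passes electrons from metabolites to oxygen and pumps protons across the inner mitochondrial membrane, and ATP synthase uses the returning protons to make ATP. Complex II, which is also the succinate dehydrogenase of the citric acid cycle, gives electrons to ubiquinone, complex III passes them to cytochrome c, and complex IV passes them to oxygen. Budding yeast has no proton-pumping complex I and uses single-subunit dehydrogenases in its place. In this yeast many of the nuclear genes are repressed by glucose and switched on by the Hap2/3/4/5 complex, whose Hap4 subunit is made when glucose is scarce. Some subunits are encoded in mitochondrial DNA, and the arrays' values for those are not analysed here.

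The median of the genes went down and came back up in each cycle. The median over the 35 genes started at 0.14, sank to 0.02 by 40 min, reached 0.44 at 60 min, came back to 0.18 at 80 and 90 min and ended at 0.34, while the median over all genes stayed between -0.03 and 0.01. The lowest array was that of 30 or 40 min for 27 genes (11 and 16), against 14.6% and 8.89% of all genes. The value at 60 min was above that at 40 min in 35 of 35 genes, against 48.1% of all genes. The value at 120 min was above that at 100 min in 34, against 49.1% of all genes, and above that at 90 min in 35 of 35. The value at 60 min exceeded the value at 120 min in 31. For the comparisons of 120 with 90 min and of 60 with 120 min the share over all genes was not computed.

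**Figure D1:**
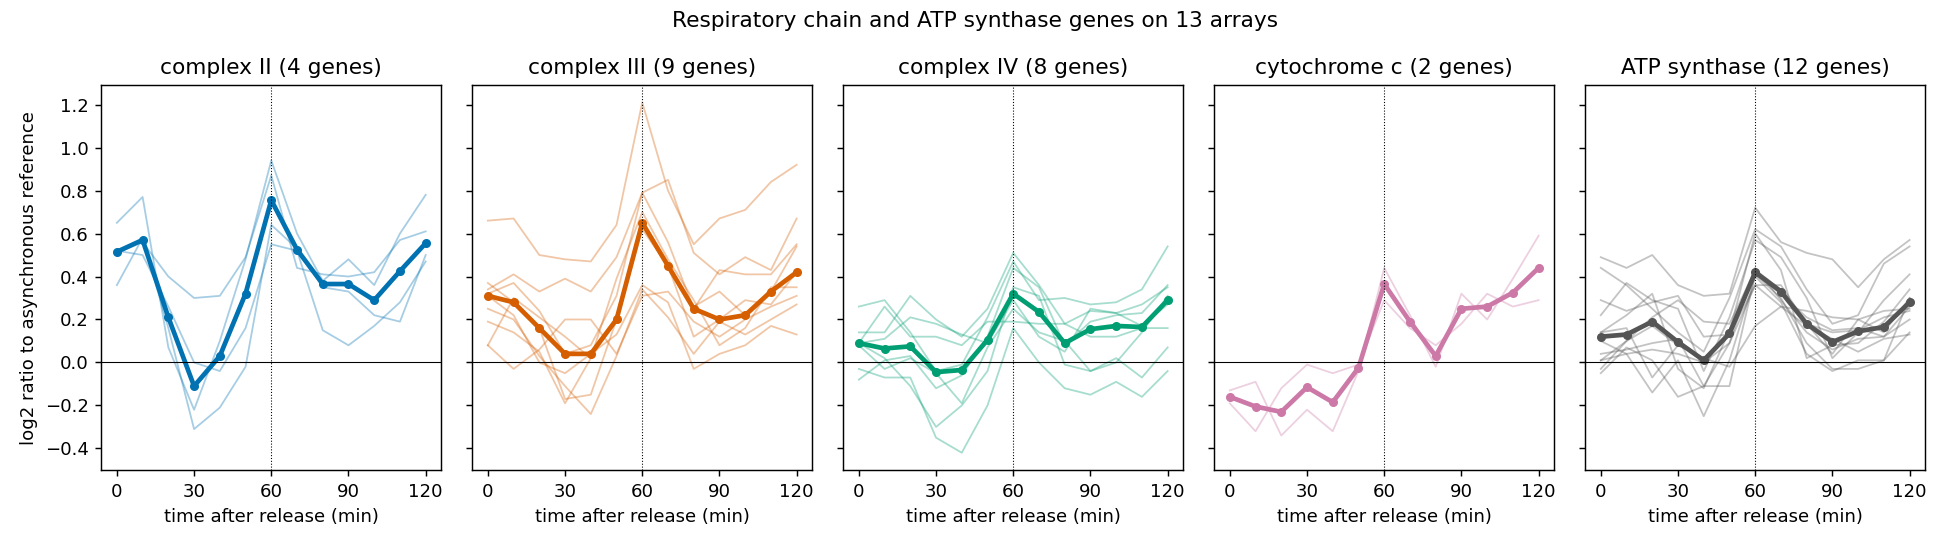
Log2 ratio to the asynchronous reference (vertical axis) against time after release in min (horizontal axis) for the 35 genes, 1 panel for each complex. Thin lines are single genes, thick lines with points are the medians over the genes of a panel, and the dotted line marks 60 min, where the medians of complexes II, III, IV and ATP synthase are highest (0.76, 0.65, 0.32 and 0.42).

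The 4 complex II genes had the largest excursion. Their median sank from 0.57 at 10 min to -0.11 at 30 min and reached 0.76 at 60 min, and in the second cycle it sank to 0.29 by 100 min and ended at 0.56. SDH1 (YKL148C), the flavoprotein subunit that oxidises succinate, stood at 0.36, 0.58, 0.16, -0.31, -0.21, -0.02 and 0.64 from 0 to 60 min and at 0.53, 0.35, 0.33, 0.22, 0.19 and 0.50 from 70 to 120 min. It was lowest at 30 and 40 min and high at 10, 60, 70 and 120 min. SDH2 (YLL041C), the iron-sulfur subunit, stood at 0.65, 0.77, 0.07, -0.22, 0.10, 0.48 and 0.94 from 0 to 60 min and at 0.60, 0.38, 0.48, 0.36, 0.60 and 0.78 from 70 to 120 min. Its values at 10 and 60 min were above all those from 20 to 50 min. SDH3 (YKL141W), a membrane anchor that helps bind ubiquinone, stood at 0.51, 0.56, 0.40, 0.30, 0.31, 0.49 and 0.87 from 0 to 60 min and at 0.44, 0.41, 0.40, 0.42, 0.57 and 0.61 from 70 to 120 min. SDH3 was above the reference on all 13 arrays, with 60 min well above the rest. SDH4 (YDR178W), the other membrane anchor, stood at 0.52, 0.50, 0.26, 0.00, -0.04, 0.16 and 0.55 from 0 to 60 min and at 0.52, 0.15, 0.08, 0.17, 0.28 and 0.47 from 70 to 120 min. SDH4 returned to about the same height at 0, 10, 60, 70 and 120 min, and was near 0 at 30 and 40 min.

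Each gene was fitted with a 60 min cosine curve and a linear time term over the 13 arrays; the swing is the height of that curve from trough to peak in log2 units, and a gene is called periodic where limma's adjusted p for the curve is under 0.05. The complex II genes were chosen on this fit, and it is given without a test for all 35 genes. The swing was 0.70 ± 0.13 for SDH1, 0.72 ± 0.12 for SDH2, 0.31 ± 0.078 for SDH3 and 0.54 ± 0.067 for SDH4. The catalytic subunits SDH1 and SDH2 thus had larger fitted swings than the anchors SDH3 and SDH4, a difference that was not tested. The fitted peaks lay at 8.0 ± 1.7 min for SDH1, 2.3 ± 1.8 min for SDH2, 1.0 ± 2.7 min for SDH3 and 4.8 ± 1.3 min for SDH4. Related genes may share signal on such arrays. Of the complex II paralogs, SHH3, a relative of SDH3, had a swing of 0.087 ± 0.072, SHH4, a relative of SDH4, one of 0.24 ± 0.058, and SDH9, a relative of SDH1, one of 0.45 ± 0.12.

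In complex III, which passes electrons from ubiquinol to cytochrome c, the redox and core subunits had larger fitted swings than the small subunit QCR6. The median of the 9 genes started at 0.31, lay at 0.04 at 30 and 40 min, reached 0.65 at 60 min, sank to 0.20 by 90 min and ended at 0.42. QCR2 (YPR191W), a core subunit, had the largest swing of the complex, 0.51 ± 0.093, and stood at 0.37, 0.28, 0.16, -0.17, -0.15, 0.20 and 0.65 from 0 to 60 min and at 0.44, 0.26, 0.33, 0.22, 0.33 and 0.54 from 70 to 120 min. It was lowest at 30 and 40 min and highest at 60 and 120 min. QCR6 (YFR033C), the acidic subunit that assists the binding of cytochrome c1 to cytochrome c, had the smallest, 0.057 ± 0.077, and stood at 0.08, -0.03, 0.06, 0.20, 0.20, 0.04 and 0.31 from 0 to 60 min and at 0.33, 0.19, 0.12, 0.20, 0.26 and 0.31 from 70 to 120 min. QCR6 was the only gene of the complex that was lowest at 10 min, and its highest values were at 60, 70 and 120 min. The other core subunit, COR1 (YBL045C), had a swing of 0.39 ± 0.091. RIP1 (YEL024W), the Rieske iron-sulfur protein, had a swing of 0.37 ± 0.099, and CYT1 (YOR065W), for cytochrome c1, one of 0.38 ± 0.097. RIP1 and COR1 had the closest time courses of any 2 of the 35 genes, with a Pearson r of 0.97 over the 13 arrays, given as a description. The remaining small subunits QCR7, QCR8, QCR9 and QCR10 had swings of 0.29, 0.33, 0.35 and 0.30. Fitted peaks of all 9 genes lay between 0.019 ± 2.3 min for QCR10 and 6.8 ± 3.3 min for QCR7. That of QCR6, 4.1 ± 13.8 min, is poorly determined, so no timing is read for this gene.

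With time point over reference as the direction, CYT1 stood highest of all 35 genes. It stood at 0.66, 0.67, 0.50, 0.48, 0.47, 0.64 and 1.21 from 0 to 60 min and at 0.80, 0.55, 0.67, 0.71, 0.84 and 0.92 from 70 to 120 min. It was above 0 on every array, and the 60 min array was the only one above 1. Of the small subunits, QCR9 (YGR183C) and QCR10 (YHR001W-A) had the smallest change between the cycles. QCR9 stood at 0.08, 0.30, 0.21, 0.12, 0.02, 0.39 and 0.70 from 0 to 60 min and at 0.48, 0.29, 0.08, 0.16, 0.35 and 0.35 from 70 to 120 min. QCR10 stood at 0.31, 0.22, 0.00, -0.05, 0.04, 0.13 and 0.36 from 0 to 60 min and at 0.28, -0.03, 0.04, 0.08, 0.17 and 0.13 from 70 to 120 min. The step from 40 to 60 min was larger for QCR9 than for QCR10, and QCR10 stayed within 0.05 of 0 from 20 to 40 min and from 80 to 90 min.

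Complex IV, cytochrome c oxidase, held both strongly and hardly moving genes. The median of its 8 measured nuclear subunits started at 0.09, sank to -0.045 by 30 min, reached 0.32 at 60 min, returned to 0.09 at 80 min and ended at 0.29. COX4 (YGL187C), a zinc-binding subunit needed for assembly, had the largest swing of the complex, 0.45 ± 0.064, and stood at 0.09, 0.02, -0.11, -0.30, -0.20, -0.04 and 0.35 from 0 to 60 min and at 0.31, -0.01, -0.04, 0.00, 0.14 and 0.31 from 70 to 120 min. It was at or below 0.02 from 10 to 50 min and reached the same height, within 0.04, at 60, 70 and 120 min. COX12 (YLR038C), a small subunit, had the smallest swing of all 35 genes, 0.0099 ± 0.074, and stood at 0.09, 0.11, 0.21, 0.18, 0.13, 0.09 and 0.29 from 0 to 60 min and at 0.12, 0.05, 0.25, 0.23, 0.17 and 0.27 from 70 to 120 min. Its values show no common low point at 30 or 40 min. COX9 (YDL067C), also a small subunit, had a swing of 0.084 ± 0.055 and stood at 0.09, 0.26, 0.12, 0.12, 0.08, 0.19 and 0.19 from 0 to 60 min and at 0.18, 0.18, 0.12, 0.12, 0.16 and 0.16 from 70 to 120 min. COX9 was the only complex IV gene whose highest array was that of 10 min. COX6, COX8, COX7 and COX13 had swings of 0.32, 0.32, 0.21 and 0.14.

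Yeast makes subunit 5 of complex IV from COX5A when oxygen is present and from COX5B when it is scarce, and it makes cytochrome c likewise from CYC1 and, at low oxygen, CYC7. Only COX5A of the former pair was measured. COX5A (YNL052W) stood at -0.08, 0.01, 0.03, -0.12, -0.06, 0.12 and 0.44 from 0 to 60 min and at 0.35, 0.08, 0.19, 0.22, 0.23 and 0.36 from 70 to 120 min. It was at or below 0.03 through 40 min and its swing was 0.24 ± 0.081. CYC1 (YJR048W) stood at -0.19, -0.32, -0.12, -0.01, -0.05, -0.01 and 0.29 from 0 to 60 min and at 0.16, 0.08, 0.18, 0.32, 0.26 and 0.29 from 70 to 120 min. CYC1 was lowest at 10 min and then between -0.12 and -0.01 through 50 min, and its curve at 60 min was nearly flat, with a swing of 0.056 ± 0.086. CYC7 (YEL039C) stood at -0.13, -0.09, -0.34, -0.22, -0.32, -0.04 and 0.44 from 0 to 60 min and at 0.22, -0.02, 0.32, 0.20, 0.39 and 0.59 from 70 to 120 min. CYC7 was below 0 on all arrays from 0 to 50 min and at 80 min, and at least 0.20 on the others, with a swing of 0.36 ± 0.098 on top of its rise. The Pearson r of CYC1 and CYC7 was 0.81 over the 13 arrays, and the 2 genes are related in sequence, so they may share signal.

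ATP synthase has a catalytic F1 head with a central stalk, a membrane part, and a peripheral stalk that holds them together. The median of its 12 measured genes started at 0.12, sank to 0.01 by 40 min, reached 0.42 at 60 min, sank to 0.095 by 90 min and ended at 0.28. ATP20 (YPR020W), subunit g of the membrane part, which helps the enzyme form dimers, had the largest swing, 0.43 ± 0.058, and stood at 0.44, 0.36, 0.25, 0.14, 0.05, 0.30 and 0.62 from 0 to 60 min and at 0.54, 0.34, 0.18, 0.22, 0.46 and 0.54 from 70 to 120 min. It went down from 0 to 40 min, was highest at 60 min, and repeated the course with a low point at 90 min. ATP5 (YDR298C), the peripheral stalk subunit called OSCP, had the smallest, 0.067 ± 0.093, and stood at 0.01, 0.10, 0.21, 0.29, 0.19, 0.18 and 0.43 from 0 to 60 min and at 0.34, 0.18, 0.14, 0.15, 0.21 and 0.24 from 70 to 120 min. ATP5 was lowest at 0 min, and its values at 30 and 40 min were no lower than that at 50 min. ATP3 (YBR039W), the gamma subunit that turns inside the head, stood at -0.05, 0.07, 0.01, -0.16, -0.11, 0.09 and 0.44 from 0 to 60 min and at 0.29, 0.14, 0.06, 0.11, 0.12 and 0.26 from 70 to 120 min. ATP3 had its low point at 30 and 40 min and a swing of 0.31 ± 0.08.

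By parts of the enzyme, the F1 head subunits ATP1 and ATP2 had swings of 0.25 and 0.30 and peaks at 8.7 and 9.7 min. The central stalk subunits ATP15 and ATP16 had swings of 0.40 and 0.20. ATP16, the delta subunit, had the latest fitted peak of the enzyme, at 15.02 min, and stood highest at 70 min. In the peripheral stalk ATP4 had a swing of 0.11, ATP7 one of 0.36 and ATP14 one of 0.35, so both strongly and weakly moving genes occurred within this part. The membrane subunits ATP17 and ATP18 had swings of 0.31 and 0.22.

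**Figure D2:**
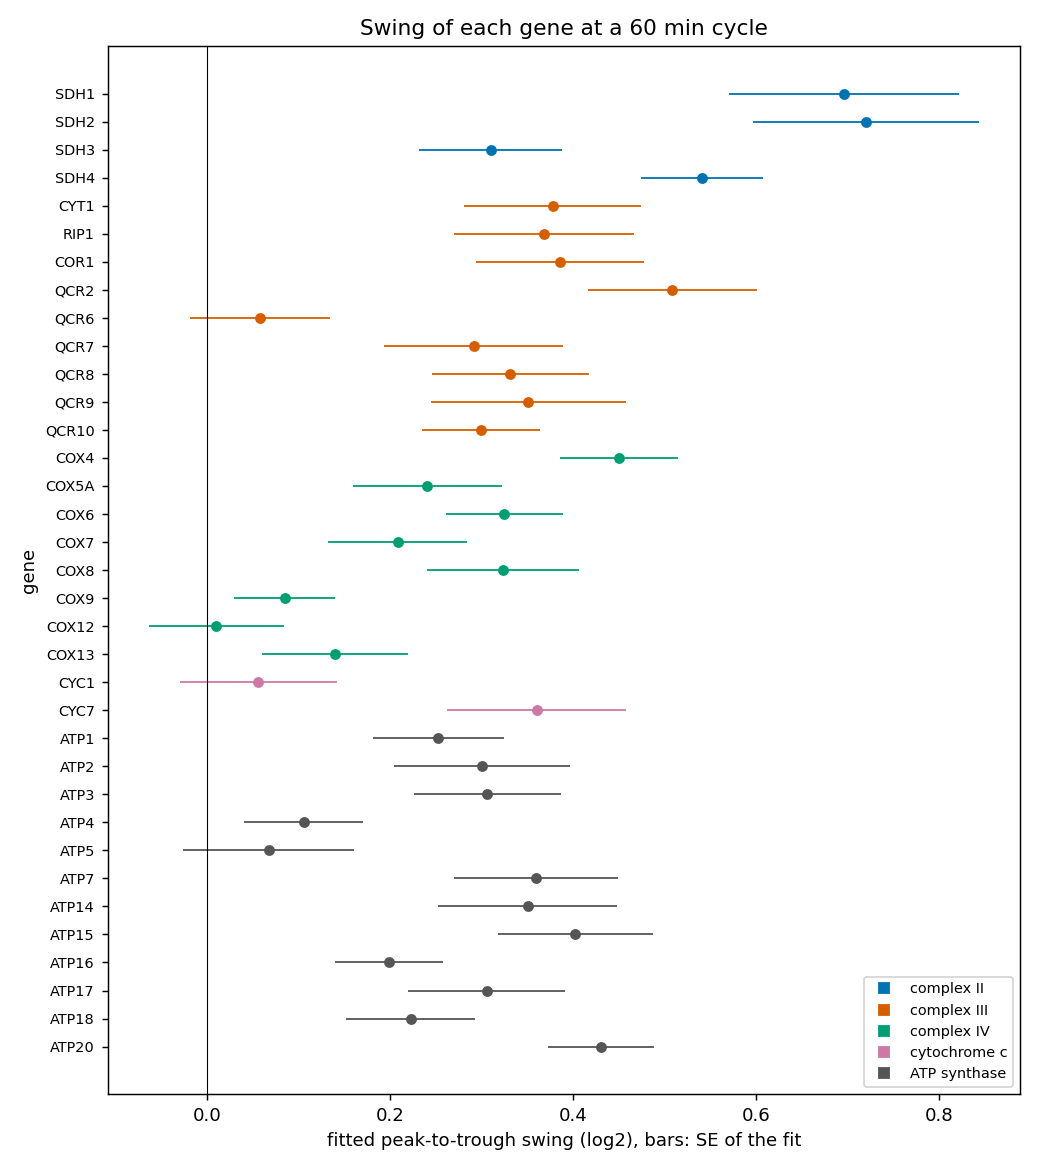
Fitted peak-to-trough swing on the log2 scale (horizontal axis) for each of the 35 genes (vertical axis), coloured by complex, with bars for the standard error of the fit over 13 arrays. SDH2 and SDH1 lie farthest to the right (0.72 and 0.70) and COX12, CYC1 and QCR6 nearest to 0 (0.01, 0.06 and 0.06).

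Set side by side, the median swing was 0.62 for complex II, 0.35 for complex III, 0.22 for complex IV, 0.21 for cytochrome c and 0.30 for ATP synthase, against 0.21 for all genes. The difference between complexes was not tested. All 4 complex II genes, 6 of 9 complex III genes, 3 of 8 of complex IV, CYC7 of cytochrome c and 7 of 12 ATP synthase genes were called periodic, 21 of 35 in all. Among all genes tested the share called was 30.1%, and since the choice of the genes used this fit, nothing is read from the count. The genes just inside the threshold were ATP1, with a swing of 0.25 ± 0.072, and ATP17 (0.31 ± 0.086), and those just outside were ATP16 (0.20 ± 0.059) and QCR9 (0.35 ± 0.11). With an estimated correlation between neighbouring arrays the count was 9, or 3 of complex II, 2 each of complexes III and IV and ATP synthase and none of cytochrome c, when 16.6% of all genes were called. Without the 60 min array it was 18, with 28.4% of all genes called, and without the 40 min array 10, with 19.3% of all genes called. Without both the 60 and the 120 min array, an alternative chosen after seeing the data, it was 10, with 23.4% of all genes called. With a cycle of 55 min it was 11, with 15.5% of all genes called, and without the linear time term 10, with 26% called.

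The fitted peaks, from the same fit that chose the genes, are given as a description. All 21 genes called periodic peaked between 0.019 and 9.5 min, modulo 60, with a circular mean of 4.5 min and a circular standard deviation of 2.6 min. By complex the mean peak of the called genes was 4.0 min for complex II, 2.9 min for complex III, 5.1 min for complex IV and 6.3 min for ATP synthase, each with a circular standard deviation between 1.2 and 2.7 min, and the differences between these means were not tested. The mean peak lay ahead of the fitted peaks of CLN2 and HTA1, and the latest of the 21 peaks, 9.5 ± 2.5 min for ATP17, was within its standard error of that of SIC1. Of 6 genes specific to MATa cells 4 were periodic, and 3 with an estimated correlation, beside 30.1% and 16.6% of all genes, with a mean peak at 4.1 min; the swings of the 6 ran from 1.40 to 2.01 and their mean levels from -0.90 to -0.085. Of 8 markers of MATalpha, diploid or meiotic cells 1 was periodic, STE3 (limma adjusted p = 0.049, or 0.13 with an estimated correlation). The part of these in the respiratory genes' course was not tested.

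As a description over the 13 arrays, which share 1 culture and 1 kind of reference, the median Pearson r between 2 of the 35 genes was 0.67 over 595 pairs, and that between any 2 genes 0.003. Within a complex the median r was 0.83 for complex II, 0.74 for complex III, 0.62 for complex IV and 0.72 for ATP synthase. Between complexes it ran from 0.37 for complex II with cytochrome c to 0.78 for complex II with complex III. The lowest value of any pair was -0.16, for COX9 with COX12. The genes of complexes II and III thus followed each other about as closely as those of 1 complex. Cytochrome c stood farther off from complex II and from ATP synthase (0.42) than from complex III (0.60) and complex IV (0.55).

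The sampling of 2 cycles allows the oscillation in each to be fitted separately, with 6 arrays a cycle. The fitted swing was smaller in the second cycle in 28 of the 35 genes (80%), against 72.6% of all genes tested and 83.3% of all genes called periodic. The median swing of the 35 went from 0.46 to 0.22, that of all genes from 0.28 to 0.19 and that of all genes called periodic from 0.48 to 0.33. The median went from 0.82 to 0.34 in complex II, from 0.54 to 0.25 in complex III, from 0.35 to 0.16 in complex IV and from 0.35 to 0.23 in ATP synthase. The swing of SDH2 went from 1.14 ± 0.11 to 0.35 ± 0.11 and that of SDH1 from 1.01 ± 0.11 to 0.32 ± 0.11. That of SDH4 went from 0.63 ± 0.088 to 0.44 ± 0.088, and ATP15 and ATP20 had nearly the same swing in both, 0.43 ± 0.12 and 0.43 ± 0.12 for ATP15 and 0.46 ± 0.096 and 0.40 ± 0.096 for ATP20. In limma's test of the difference between the cycles 0 of the 35 genes passed, when 0.57% of all genes did. SDH2 (limma adjusted p = 0.099), SDH1 (adjusted p = 0.11), QCR8 (adjusted p = 0.26) and QCR2 (adjusted p = 0.31) were the 4 with an unadjusted p under 0.05. Among all 6137 genes 932 had an unadjusted limma p under 0.05, so nothing is read from these 4. With a cycle of 63 min SDH2 alone of the 35 passed (limma adjusted p = 0.046), when 92 of all genes did. With an estimated correlation none of the 35 passed, and 2 of them, beside 211 of all genes, had an unadjusted limma p under 0.05.

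**Figure D3:**
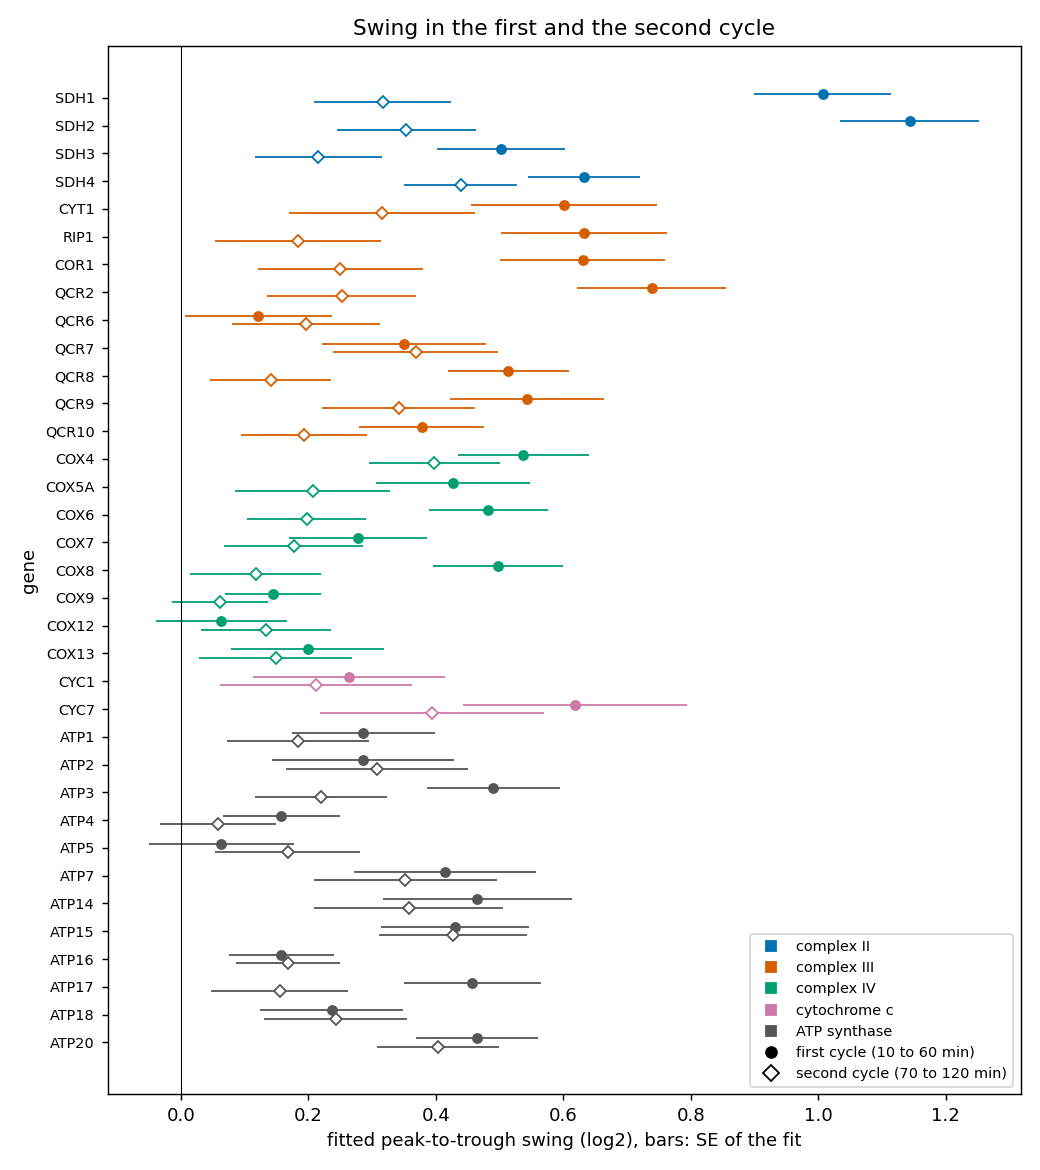
Fitted swing on the log2 scale (horizontal axis) in the first cycle (filled points, arrays of 10 to 60 min) and the second (open points, 70 to 120 min) for each of the 35 genes (vertical axis), with bars for the standard error of the fit. SDH1 and SDH2 lie at 1.01 and 1.14 among the filled points and at 0.32 and 0.35 among the open ones.

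Apart from the oscillation, the cytochrome c gene CYC7 rose over the course. The second cycle was set against the first at the same 6 positions in the cycle (70 against 10 min and so on), a comparison that did not choose the genes. CYC7 was higher in the second cycle by 0.38 ± 0.059 (limma adjusted p = 0.019), in all 6 pairs of arrays. It was the only one of the 35 genes to pass, when 0.798% of all genes passed as higher. The call was lost with an estimated correlation (limma adjusted p = 0.13) and without the arrays of 20 and 80, 30 and 90, 40 and 100, or 50 and 110 min (adjusted p from 0.064 to 0.081). CYC1 was higher by 0.25 ± 0.062 and did not pass (limma adjusted p = 0.073), although it did without the 60 and 120 min arrays (adjusted p = 0.049).

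In the other complexes the changes between cycles were smaller than those of cytochrome c. The median difference was 0.11 in complexes II and III, 0.045 in complex IV and 0.04 in ATP synthase. Of the 35 genes 28 had a difference above 0, against 47.8% of all genes. Among the lists described below, the share above 0 was 94.4% for mitochondrial ribosomal proteins, 91.7% for complex III assembly and 90.9% for complex IV assembly. It was 85.7% for ATP synthase assembly and regulation, 58.8% for glycolysis and 53.8% for the other citric acid cycle enzymes. The largest difference in complex II was 0.21 ± 0.094 for SDH1 (limma adjusted p = 0.24). That in complex III was 0.19 ± 0.074 for QCR2 (limma adjusted p = 0.19), that in complex IV 0.17 ± 0.063 for COX5A (adjusted p = 0.18) and that in ATP synthase 0.11 ± 0.061 for ATP3 (adjusted p = 0.36). The lowest values in each of these complexes were -0.013 ± 0.059 for SDH3, -0.005 ± 0.069 for QCR9, -0.005 ± 0.052 for QCR10, -0.0067 ± 0.043 for COX9 and -0.023 ± 0.06 for ATP5, each within its standard error of 0. With a linear slope over all 13 arrays in place of the paired positions, 5 of the 35 genes passed as rising, when 1.66% of all genes did. They were CYC7 with 0.39 ± 0.06 per 60 min (limma adjusted p = 0.0073), CYC1 with 0.27 ± 0.048 (adjusted p = 0.013), COX5A with 0.22 ± 0.049 (adjusted p = 0.038), COX6 with 0.16 ± 0.038 (adjusted p = 0.046) and COX4 with 0.16 ± 0.039 (adjusted p = 0.048).

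The genes stood above the asynchronous reference on average over the 12 arrays from 10 to 120 min. Of the 35, 30 passed as above it and 1, COX8, as below it, when 35.9% of all genes passed as above and 35.6% as below. With the opposite direction of the ratio, 30 would be below and 1 above. All 4 genes of complex II, all 9 of complex III, 5 of 8 of complex IV, both of cytochrome c and 10 of 12 of ATP synthase were above. The mean was highest for CYT1, at 0.705 ± 0.036 (limma adjusted p = 7.2e-09), QCR7, at 0.51 ± 0.034 (adjusted p = 4.9e-08), SDH3, at 0.48 ± 0.029 (adjusted p = 2.4e-08), and ATP1, the alpha subunit of the F1 head, at 0.47 ± 0.026 (adjusted p = 1.2e-08). Subunits of 1 enzyme stood at different ratios to the reference, which was not tested between genes. ATP2, which forms the F1 head together with ATP1, was at 0.077 ± 0.033 and did not pass (adjusted p = 0.052). COX8 was at -0.13 ± 0.03 (limma adjusted p = 0.0021), beside 0.26 ± 0.028 for COX13 and 0.26 ± 0.024 for COX6 in the same complex. COX4, COX7 and ATP7 did not pass, at 0.036 ± 0.024, 0.024 ± 0.028 and 0.056 ± 0.033. With an estimated correlation 27 of the 35 genes were above, when 1682 of all genes were, beside 2203 in the main fit. The calls of QCR8, CYC1 and CYC7 were lost (limma adjusted p = 0.058, 0.13 and 0.19). The call of CYC7 was also lost without the 60, 70, 90, 100, 110 or 120 min array (limma adjusted p from 0.055 to 0.17) and that of CYC1 without the 100, 110 or 120 min array (adjusted p from 0.052 to 0.078).

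**Figure D4:**
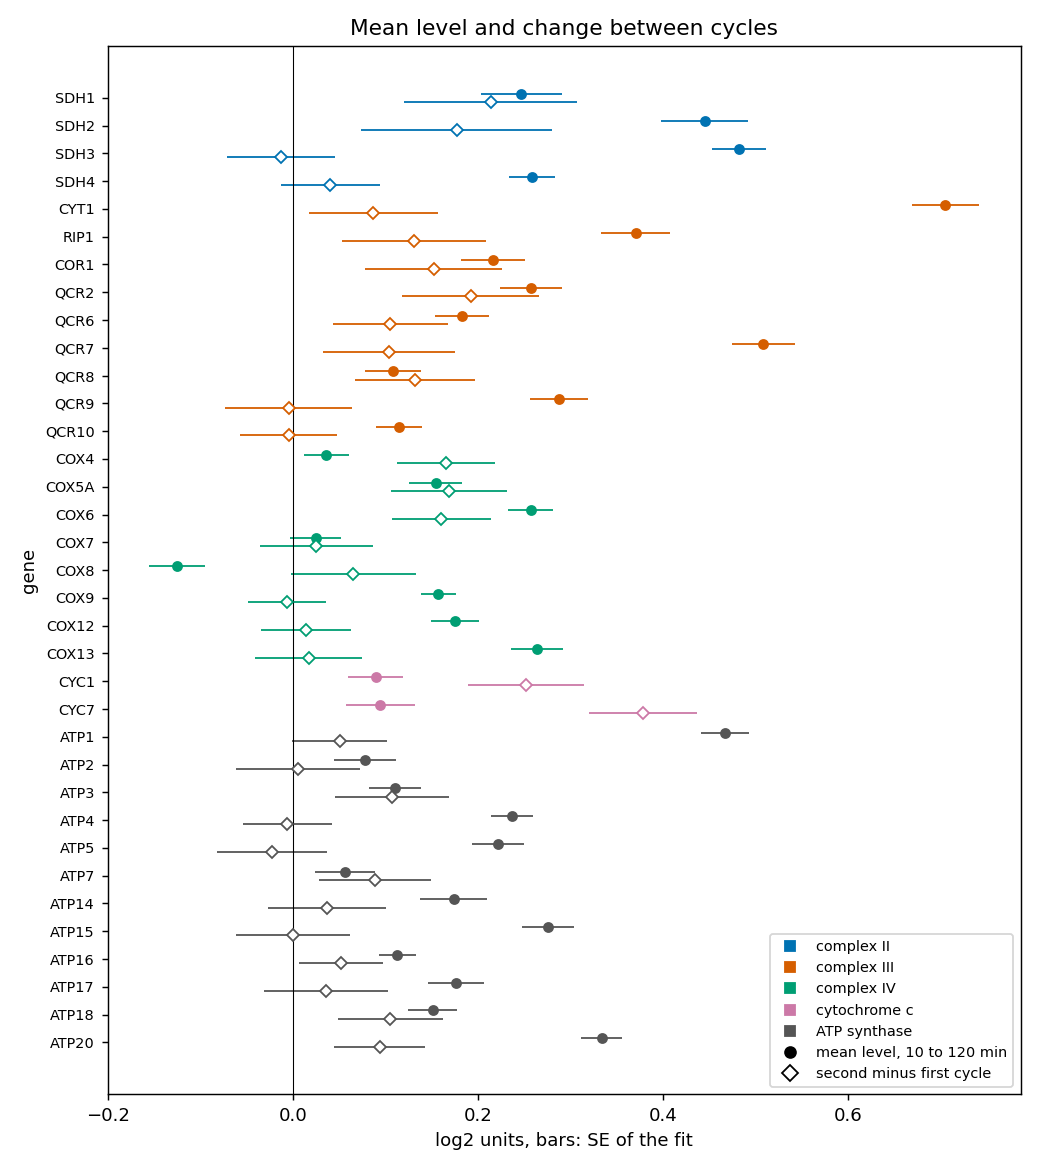
Mean log2 ratio to the asynchronous reference over the arrays of 10 to 120 min (filled points) and difference of the second minus the first cycle (open points), both in log2 units on the horizontal axis, for each of the 35 genes (vertical axis), with bars for the standard error of the fit. CYT1 has the highest level (0.705) and COX8 the lowest (-0.13), and CYC7 and CYC1 have the largest differences (0.38 and 0.25).

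At 0 min, in pheromone arrest, nearly all the genes stood lower than on the 60 and 120 min arrays. By time alone, these fall at the same position of a 60 min cycle. The value at 0 min was below the mean of the other two in 33 of 35 genes, against 52.1% of all genes, with a median difference of -0.23. With 1 array at 0 min this was not tested. By the same measure 49 of 54 mitochondrial ribosomal protein genes were lower at 0 min, and 5 of the 13 other citric acid cycle enzymes. Of 8 marker genes of position in the cell cycle 7 were lower too, with a median difference of -0.96. Whether the 0 min array matches the other two in cycle stage was not tested. Among the complexes the values were as follows. The median difference was -0.56 for cytochrome c, -0.33 for complex III, -0.23 for ATP synthase, -0.215 for complex IV and -0.21 for complex II. The largest were -0.645 for CYC7, -0.48 for CYC1 and COX5A, and -0.445 for QCR9. The 2 genes that were not lower were QCR10, with 0.065, and SDH4, with 0.01.

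Other genes of the pathway were taken from lists of their textbook members, and the counts of periodic genes below stand beside 30.1% of all genes, or 16.6% with an estimated correlation. Of 6 dehydrogenases that feed ubiquinone or cytochrome c, 4 were periodic by limma's adjusted p. NDI1, which takes the place of complex I on the matrix side, peaked at 0.9 ± 2.0 min with a swing of 0.52 ± 0.098 (adjusted p = 0.0058). GUT2, glycerol-3-phosphate dehydrogenase, peaked at 59.3 ± 1.9 min with a swing of 0.42 ± 0.076 (adjusted p = 0.0044), whereas CYB2, lactate dehydrogenase, had 0.44 ± 0.061 with a peak at 42.1 ± 1.2 min (adjusted p = 0.00078). Of these 6, 5 passed as above the reference and 1 as below it, when 35.9% and 35.6% of all genes did.

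Of 7 measured assembly factors and paralogs of complex II, 5 were periodic, with a mean peak at 2.3 min. The assembly factors SDH8 and SDH7 had swings of 0.40 ± 0.097 and 0.40 ± 0.075 (limma adjusted p = 0.022 and 0.0053), and SDH9 passed too (adjusted p = 0.035, or 0.093 with an estimated correlation). Of 12 genes of complex III assembly and cytochrome maturation, 5 were periodic, and the peaks of these 5 had a circular standard deviation of 9.7 min. CYC3, which attaches heme to cytochrome c, had a swing of 0.63 ± 0.14 (limma adjusted p = 0.015), MZM1, which assists the Rieske protein, 0.57 ± 0.095 (adjusted p = 0.0028) and CBP4 0.34 ± 0.085 (adjusted p = 0.025, or 0.087 with an estimated correlation). Of 22 complex IV assembly genes 4 were periodic, 18.2% against 30.1% of all genes. COX18 had a swing of 0.52 ± 0.096 (limma adjusted p = 0.0046), PET117 0.42 ± 0.10 (adjusted p = 0.019, or 0.07 with an estimated correlation) and PET494 0.34 ± 0.077 (adjusted p = 0.014, or 0.053). Also in that list, PET117 and PET191 were higher in the second cycle, by 0.33 ± 0.053 and 0.27 ± 0.046 (limma adjusted p = 0.022 and 0.027, or 0.08 and 0.17 with an estimated correlation).

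Of 14 genes of ATP synthase assembly and regulation 8 were periodic, with a mean peak at 6.7 min. INH1, whose product blocks ATP hydrolysis by the F1 head, had a swing of 0.54 ± 0.10 (limma adjusted p = 0.0056) and was higher in the second cycle by 0.33 ± 0.055 (adjusted p = 0.023, or 0.13 with an estimated correlation). STF1, which acts with INH1, had a swing of 0.71 ± 0.20 (limma adjusted p = 0.042) and TIM11, subunit e, a partner of ATP20 in dimers, 0.38 ± 0.059 (adjusted p = 0.0019). The assembly factors FMC1 and ATP12 were higher in the second cycle by 0.32 ± 0.057 and 0.28 ± 0.053 (limma adjusted p = 0.032 and 0.036, or 0.17 and 0.16 with an estimated correlation). Of 9 genes of ubiquinone synthesis 4 were periodic, led by COQ5 with 0.53 ± 0.068 (limma adjusted p = 0.00053), and COQ1 was higher in the second cycle by 0.27 ± 0.043 (adjusted p = 0.022, or 0.14 with an estimated correlation). Of 5 carriers of ADP, ATP and phosphate 3 were periodic, led by the phosphate carrier MIR1 with 0.50 ± 0.11 (limma adjusted p = 0.014). The peaks of these 3 had a circular standard deviation of 14.2 min.

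Of 12 regulators 5 were periodic, and 0 with an estimated correlation. HAP4 peaked at 55.5 ± 2.8 min with a swing of 0.52 ± 0.14 (limma adjusted p = 0.034, or 0.11 with an estimated correlation), and HAP5 at 2.3 ± 2.8 min with a swing of 0.26 ± 0.068 (adjusted p = 0.032, or 0.12). ROX1, a repressor of hypoxic genes, peaked at 38.5 ± 2.6 min with a swing of 0.43 ± 0.12 (limma adjusted p = 0.04, or 0.12 with an estimated correlation). RTG1, which signals from mitochondria to the nucleus, peaked at 48.9 ± 2.4 min with a swing of 0.41 ± 0.11 (adjusted p = 0.039, or 0.082). CAT8 peaked at 41.3 ± 2.3 min with a swing of 0.23 ± 0.06 (limma adjusted p = 0.031, or 0.10). HAP2 and HAP3 had swings of 0.18 ± 0.094 and 0.075 ± 0.077 and did not pass (limma adjusted p = 0.31 and 0.72). Of the 12 regulators 5 passed as above the reference and 5 as below it, when 35.9% and 35.6% of all genes did. Below it were HAP4 at -0.32 ± 0.043 (limma adjusted p = 1.9e-05), HAP5 at -0.30 ± 0.026 (adjusted p = 3.6e-07) and HAP2 at -0.19 ± 0.031 (adjusted p = 0.00013). SNF1 at -0.15 ± 0.028 was below it too, and ROX1 was lowest at -0.69 ± 0.042 (adjusted p = 2.6e-08). Above it were HAP1, a heme-dependent activator, at 0.43 ± 0.045 (adjusted p = 2.2e-06), CAT8 at 0.265, PUF3 at 0.22, MIG1 at 0.15 and RTG3 at 0.15. HAP3, at 0.031 ± 0.023, did not pass.

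Complex II also belongs to the citric acid cycle. Of the 13 other enzymes of that cycle 6 were periodic, and the peaks of these 6 had a circular standard deviation of 13.2 min. Of the 13, 12 passed as above the reference, when 35.9% of all genes did. CIT1, citrate synthase, was at 0.67 ± 0.057 (limma adjusted p = 3.6e-07) and peaked at 10.8 ± 2.4 min (adjusted p = 0.036, or 0.07 with an estimated correlation), while IDH1, a subunit of isocitrate dehydrogenase, peaked at 36.9 ± 2.0 min (adjusted p = 0.0082). Of 54 mitochondrial ribosomal protein genes 16 were periodic, 29.6% against 30.1% of all genes, with a mean peak at 10.9 min. Of the same 54, 24 passed as above the reference and 15 as below, when 35.9% and 35.6% of all genes did. Of 17 glycolysis genes 3 were periodic, with a mean peak at 5.4 min. Of the same 17, 10 passed as below the reference, among them TDH3 at -0.35 ± 0.02 (limma adjusted p = 1.4e-08). Another 3 passed as above it, among them the hexokinase HXK1 at 0.48 ± 0.053 (adjusted p = 3.7e-06) and the glucokinase GLK1 at 0.42 ± 0.059 (adjusted p = 2.9e-05). With an estimated correlation the periodic genes numbered 3 of 6 dehydrogenases, 3 of 7 for complex II assembly, 3 of 12 for complex III assembly, 1 of 22 for complex IV assembly, 4 of 14 for ATP synthase assembly, 2 of 9 for ubiquinone synthesis, 1 of 5 carriers, 2 of 17 for glycolysis, 1 of 13 in the citric acid cycle and 5 of 54 mitochondrial ribosomal proteins. These counts stand beside those of the 35 genes and their differences were not tested.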

How the data were processed

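The deposited values are ratios per open reading frame on a log scale, taken here as log2 since no base is stated, from 2-colour arrays, per the labels' protocols made from amino-allyl cDNA, and the sources used here do not name the authors' scanner, background correction or normalization. They were used as deposited. Of 6295 rows, 108 were empty and 20 had no readable name. Rows were named from a RefSeq table of assembly R64, 5768 by locus tag and 49 by synonym, and 458 kept their open reading frame name. Rows of 1 gene were averaged, and the 6137 genes with at least 10 arrays were tested. Each of the 35 genes described has 1 row.

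All fits used limma 3.58.1 in R 4.3.3, with Benjamini-Hochberg adjustment over all genes and a threshold of 0.05. Periodicity was the F test of a cosine and sine of 60 min beside a linear time term over 13 arrays, the series' design text giving 2 cycles over 120 min. The change between cycles took the 6 positions in the cycle as blocks, the mean level was the intercept over the 12 arrays from 10 to 120 min with time and the curve as terms, and the difference in oscillation was the F test of cycle by cosine and sine. In an alternative, a lag 1 correlation between neighbouring arrays was estimated from the residuals (0.342 for periodicity, 0.3 for the change between cycles, 0.322 for the level and 0.421 for the difference in oscillation) and removed. Other alternatives were cycle lengths of 55, 63 and 65 min, no linear term, other centring, first rows, complete genes only and each array left out. The fits were also run on simulated arrays whose noise had no correlation between neighbouring arrays, and nothing is read from those runs. The number of arrays limits the precision, and no signal over background was at hand.

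The 35 genes and the lists of other genes were chosen with earlier results of these data known. Values on every array are given for the complex II genes, the isoform genes, the genes of largest and smallest swing and of highest and lowest signed change between cycles in each other complex, and, chosen after its values were seen, CYT1. The rule for the other lists was to name the 3 called genes of largest value in each comparison. Where a list has fewer named, the rest are in the counts. HAP2, HAP3, HAP5, the periodicity of CAT8, NCA2, the complex II paralogs and TIM11 were added after their values were seen. The ATP synthase parts follow textbook roles.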

Additional observations from a re-analysis of the deposited data

How the results depend on the processing

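Of the 35 genes, 21 were periodic at 60 min, 11 with a cycle of 55 min, 10 without the linear time term, 9 with an estimated correlation and 10 without the 60 and 120 min arrays (chosen after seeing the data), and in each of these all were among the 21. Leaving out single arrays gave from 10 (without 40 min) to 20 (without 0 min), with 13 without 70 min. For the change between cycles the count was 1 with paired positions, 5 with a linear slope, 0 when the correlation was estimated (limma, 3 with an unadjusted p under 0.05, beside 649 of all genes), and 0 to 2 with pairs of arrays left out. The level gave 31 calls, and 29 to 32 with single arrays left out. The difference between the cycles gave 0, 1 with a cycle of 63 min, and from 0 to 0 with single arrays left out. In those runs 2 to 10 of the 35, beside 632 to 1364 of all genes, had an unadjusted limma p under 0.05. The genes lower at 0 min numbered 33, and 30 to 35 against 60 or 120 min alone. No called level, and no called change between cycles, turned its sign under any alternative run.

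Over all genes, 1847 were periodic, 950 at 55 min, 1596 without the linear time term, 1436 without the 60 and 120 min arrays, 1017 with an estimated correlation and 1187 without 40 min. The change between cycles gave 87 genes, 174 by slope, 18 with an estimated correlation and 17 to 244 with pairs left out. The difference between cycles gave 35, 92 at 63 min, 0 when the correlation was estimated (limma, 211 with an unadjusted p under 0.05) and 3 to 235 with arrays left out. Arrays were paired only by position in the cycle, for the change between cycles; each time point has 1 array, so no pairing by replicate number exists.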
